A study of Mus musculus with 35 samples.

Results

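Described here are 44 genes of mitosis and cell proliferation, listed by symbol, in the lungs of mice that breathed styrene. Each gene was read from its brightest probe set, by the mean over 35 arrays, among the probe sets annotated with exactly that 1 symbol. This gave 42 of the 44 genes, out of 17097 genes measured on the arrays, and Ccnb1 and Nuf2 were not analysed here. The study took whole lung of adult male CD-1 mice, an outbred stock for which the labels name no engineered allele, and hybridised the RNA of each mouse to 1 array. The 7 groups of 5 mice breathed air alone or air with styrene at 1, 5, 10, 20, 40 or 120 ppm. Styrene is an industrial solvent that enzymes of the mouse airway convert to a reactive epoxide. The labels disagree on the length of exposure: the protocol gives a single exposure of 6 hours and the titles 1 day, whereas the sample characteristics give 5 days. All mice were killed on the morning after the last exposure.

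A cell enters mitosis when the kinase CDK1 is switched on by cyclins A and B. Polo-like and Aurora kinases then build the spindle, condensin and topoisomerase II fold and untangle the chromosomes, and kinetochores attach them to microtubules. The spindle checkpoint holds back CDC20, the activator of the anaphase-promoting complex, until every chromosome is attached, and UBE2C helps that complex mark cyclin B and securin for destruction. Adult lung renews itself slowly, so few of its cells are in mitosis at any moment, and MKI67 and TOP2A are widely used as marks of dividing lung cells after injury. Many of these genes share a mode of control: the DREAM complex represses them in resting cells and B-MYB with FOXM1 activates them late in the cycle, through a short promoter element called the CHR and through nearby CCAAT boxes.

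The promoters of 6 members are shown because genes that carry a CHR word were called in opposite directions. Each is 250 bases before and 30 bases from the annotated start, 5′ to 3′ on the gene's own strand, from RefSeq on GRCm38.p6. Capitals mark the CHR words TTTGAA and TTCGAA and the CCAAT box, on either strand, with overlapping matches run together. Mki67 and Top2a rose at 5 ppm, Cdk1 passed no test there, and Cdc20, Ube2c and Cenpa fell. The windows are chr7:135716350-135716629, minus strand, for Mki67, chr11:99024160-99024439, minus strand, for Top2a, and chr10:69352883-69353162, minus strand, for Cdk1. Those of the genes that fell are chr4:118437314-118437593, minus strand, for Cdc20, chr2:164769679-164769958, plus strand, for Ube2c, and chr5:30666636-30666915, plus strand, for Cenpa.
Mki67: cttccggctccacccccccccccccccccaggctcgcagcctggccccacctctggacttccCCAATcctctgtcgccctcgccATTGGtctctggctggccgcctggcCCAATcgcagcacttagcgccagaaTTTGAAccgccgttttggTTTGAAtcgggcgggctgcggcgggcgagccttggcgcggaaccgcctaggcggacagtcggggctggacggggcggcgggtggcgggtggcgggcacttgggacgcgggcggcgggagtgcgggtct
Top2a: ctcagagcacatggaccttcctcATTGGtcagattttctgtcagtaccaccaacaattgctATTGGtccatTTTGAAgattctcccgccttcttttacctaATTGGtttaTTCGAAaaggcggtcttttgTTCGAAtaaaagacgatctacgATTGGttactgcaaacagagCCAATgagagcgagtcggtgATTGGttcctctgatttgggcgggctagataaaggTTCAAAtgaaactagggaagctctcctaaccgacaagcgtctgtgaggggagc
Cdk1: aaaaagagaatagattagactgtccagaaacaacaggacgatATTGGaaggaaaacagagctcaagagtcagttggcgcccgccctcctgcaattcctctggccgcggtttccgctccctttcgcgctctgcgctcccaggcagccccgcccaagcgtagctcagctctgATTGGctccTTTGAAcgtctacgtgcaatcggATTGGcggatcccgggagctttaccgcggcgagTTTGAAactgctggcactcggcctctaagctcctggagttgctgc
Cdc20: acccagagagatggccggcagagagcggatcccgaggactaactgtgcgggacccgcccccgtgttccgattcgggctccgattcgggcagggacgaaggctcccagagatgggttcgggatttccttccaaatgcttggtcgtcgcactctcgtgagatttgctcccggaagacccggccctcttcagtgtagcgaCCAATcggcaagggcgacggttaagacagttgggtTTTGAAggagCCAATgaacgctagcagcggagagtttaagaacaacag
Ube2c: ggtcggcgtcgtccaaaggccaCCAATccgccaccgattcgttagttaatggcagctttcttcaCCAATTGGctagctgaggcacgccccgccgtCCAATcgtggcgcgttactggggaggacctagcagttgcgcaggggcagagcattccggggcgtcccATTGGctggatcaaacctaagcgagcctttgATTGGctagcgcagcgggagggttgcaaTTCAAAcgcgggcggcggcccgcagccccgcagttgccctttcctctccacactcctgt
Cenpa: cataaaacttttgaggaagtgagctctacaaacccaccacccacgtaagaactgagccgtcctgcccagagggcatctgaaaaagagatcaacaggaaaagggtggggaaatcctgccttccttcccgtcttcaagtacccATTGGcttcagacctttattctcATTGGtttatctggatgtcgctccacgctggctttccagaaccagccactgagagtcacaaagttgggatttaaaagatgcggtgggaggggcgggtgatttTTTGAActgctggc

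Of the 42 measured members, 35 had a RefSeq promoter of 250 bases before and 50 bases from the start. A CHR word, TTTGAA or TTCGAA on either strand, stood in 30 of the 35 (85.7%), against 21.7% of the promoters of 27025 genes. CCAAT on either strand stood in 28 of the 35 (80%), against 41.1% of all genes, and both elements in 26 (74.3%), against 8.61%. The E2F word TTCCCGCC was in 0 of the 35 and in 2.52% of all genes, which says only that these letters are not in the windows. The CHR words lay near the start: 32 of the members' 45 matches (71.1%) began within 50 bases of it on either side, against 25.2% of 7260 matches in all promoters. Ect2, Prc1 and Bub3 have overlapping windows, and a word in these was counted once for each window. With the bases before the start alone the CHR share of the members was 40.0%, against 19.6% of all genes. A CHR word was in 10 of 14 members that rose, 8 of 8 that fell and 12 of 13 that passed no test.

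The arrays differed as a whole between groups. Air and 1 ppm stood apart from 5 to 120 ppm on the first principal component of all genes, which held 70.9% of the variance. The interquartile range of an array was 2.942 to 3.164 in air, 2.664 to 2.965 at 1 ppm, 3.415 to 3.536 at 5 ppm and 3.284 to 3.46 from 10 to 120 ppm. Air therefore shared no range with 5 to 120 ppm, and a fit with this range as a covariate extrapolates between them. Its part in the results against air was not tested, and the calls that such a fit ended are given beside them. Scaling also mattered, since the median change of all genes at 5 ppm was -0.23 as deposited, -0.14 after quantile normalization and -0.33 after centring arrays on their medians. Markers of lung epithelium were high, as 7 measured markers such as surfactant genes averaged between 12.18 and 12.51 log2 in every mouse. That mean covers changes in both directions at 5 ppm against air. Foxj1 (-1.22) and Ager (-0.18) were called lower, Cldn18 (0.68), Sftpa1 (0.22) and Scgb1a1 (0.15) higher, and Sftpc and Cyp2f2 were not called. Of all genes 29.6% were called higher there and 47.4% lower. The members gave weak signals, with a median at the 34.7th percentile of all genes and 7 above the median gene, and the table holds no detection calls. In whole tissue, a change in the number of cells of a type and a change of RNA per cell cannot be told apart.

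The mitosis genes did not move as a block. At 5 ppm against air 16 of the 42 rose, 11 fell and 15 passed no test, with a median log2 change of 0.10 against -0.23 for all 17097 genes. Of all genes 77.0% were called in this comparison (limma, Benjamini-Hochberg adjusted p under 0.05), 29.6% higher and 47.4% lower. The members were thus called higher a little more often than genes at large (38.1%) and lower less often (26.2%), without a test of that difference. The values of all 5 exposed mice lay above those of all 5 air mice in 14 members and below them in 5, while 25.1% and 32.7% of all genes did so. Among the 35 members at or below the median signal, 13 rose (37.1%) and 7 fell (20.0%), against 15.6% and 49.8% of the 8549 genes of that signal. At 10 ppm 12 rose and 9 fell, with 66.4% of all genes called, 29.0% higher and 37.4% lower. At 20 ppm 14 rose and 5 fell, with 63.6% of all genes called, 29.4% higher and 34.2% lower. At 40 ppm 5 rose and 11 fell, with 64.8% called, 28.6% higher and 36.2% lower. At 120 ppm 11 rose and 11 fell, with 68.9% called, 29.8% higher and 39.1% lower. The members' shares at 40 ppm, 11.9% higher and 26.2% lower, were both below those of all genes. These 5 comparisons share the same 5 air mice. Centring arrays changed the split to 16 higher and 14 lower at 5 ppm, with a median of -0.01, to 10 higher and 12 lower at 10 ppm, 13 and 8 at 20 ppm and 9 and 16 at 120 ppm, and quantile normalization to 9 and 8 at 40 ppm. All genes shifted too. At 5 ppm 5060 were higher and 8109 lower as deposited, and 4741 and 9445 after centring, with a median of -0.33. Centring gave 4631 and 7667 at 10 ppm, 4715 and 6818 at 20 ppm and 4840 and 7823 at 120 ppm. Quantile normalization gave 4462 and 5577 at 40 ppm.

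**Figure D1:**
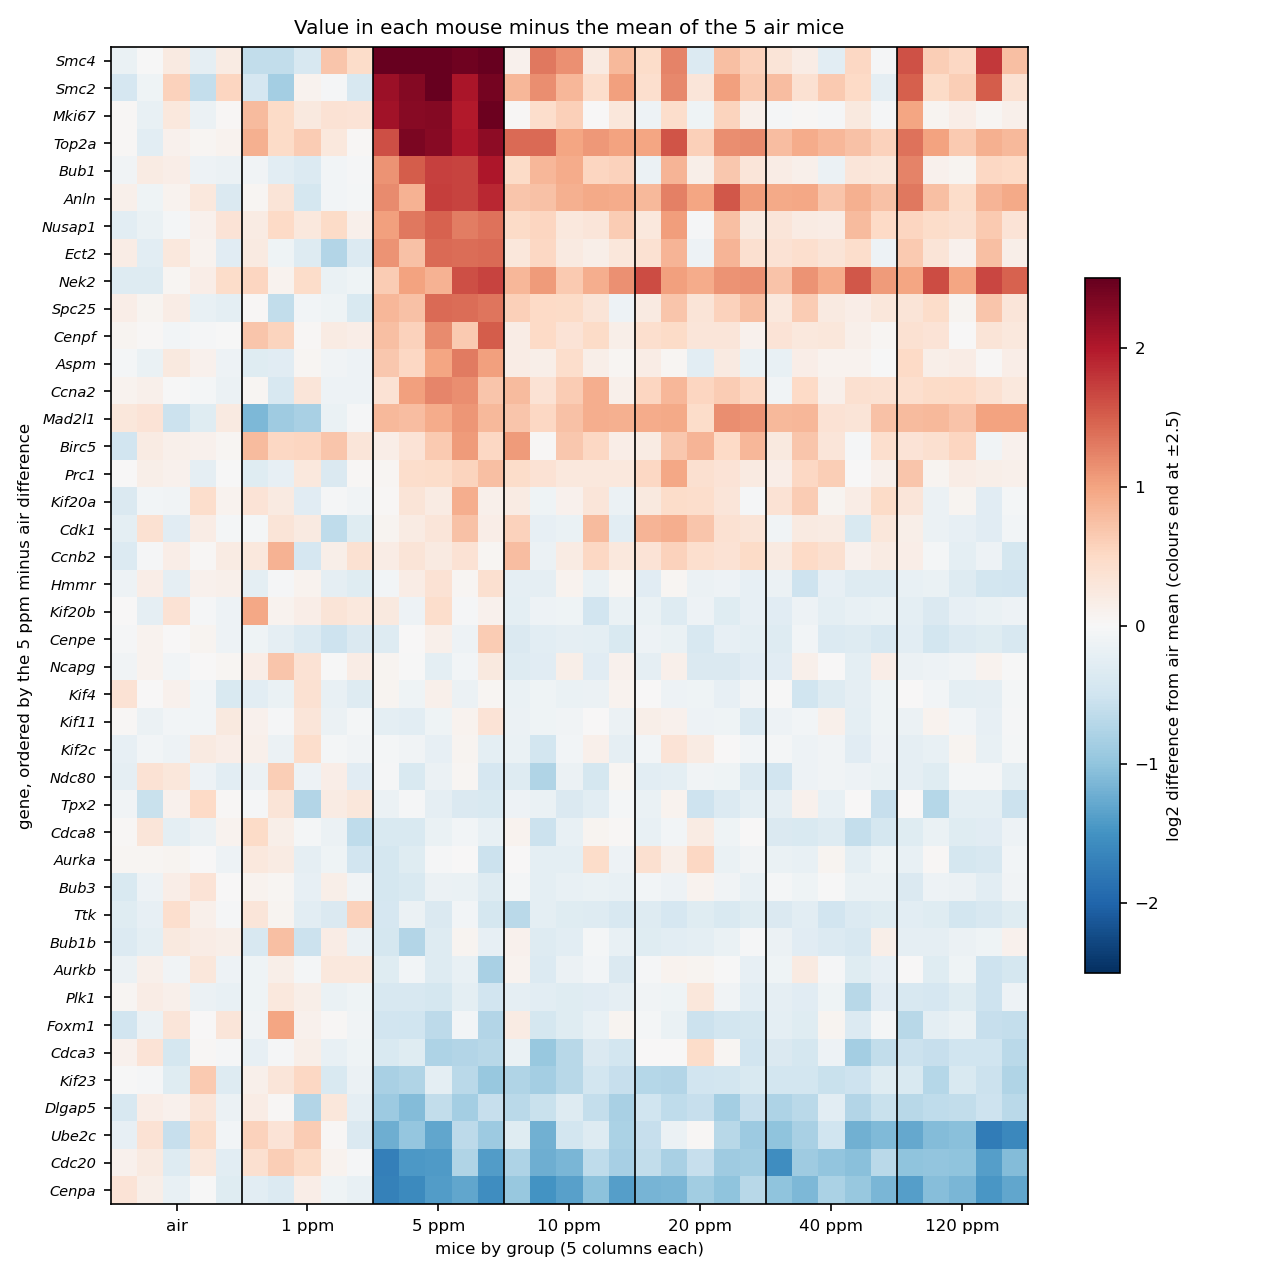
Heat map of the log2 value in each of 35 mice (columns, 5 a group) minus the mean of the 5 air mice, for the 42 measured mitosis genes (rows) ordered by their change at 5 ppm. The 5 ppm columns are the darkest at both ends, from Smc4 at 2.75 to Cenpa at -1.51, and the middle rows stay pale in all groups.

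Chromosome structure and cycle marker genes held the largest rises. Smc4 encodes a core ATPase of condensin, the ring that compacts chromosomes. Its values were 5.52, 5.68, 5.91, 5.46 and 5.90 log2 in the 5 air mice and 8.31, 8.63, 8.63, 8.12 and 8.55 at 5 ppm. The 5 ppm mice lay above every mouse of the other 6 groups, whose highest value was 7.46 at 120 ppm. Smc4 rose by 2.75 ± 0.28 log2 (SE, 6.74-fold, adjusted p = 1.4e-10) at 5 ppm, by 0.71 ± 0.28 (adjusted p = 0.0252) at 10 ppm and by 1.05 ± 0.28 (adjusted p = 0.00138) at 120 ppm. It was 0.53 ± 0.28 (adjusted p = 0.0942) above air at 20 ppm and 0.14 ± 0.28 (adjusted p = 0.671) at 40 ppm, so its level did not climb with concentration. The call at 10 ppm was lost without mouse 1 or 4 of air or mouse 2 or 3 of 10 ppm (changes of 0.57 to 0.67, adjusted p of 0.0525 to 0.0891). That call was also lost with probe sets averaged (0.24, adjusted p = 0.386) and after quantile normalization (0.40, adjusted p = 0.212). At 120 ppm the dimmer Smc4 probe sets were at -0.09 (adjusted p = 0.764) and 0.77 (adjusted p = 0.0139). At 40 ppm 1 of the 3 Smc4 probe sets was called lower. Its partner Smc2 rose by 2.30 ± 0.245 (4.93-fold, adjusted p = 3.84e-10) at 5 ppm, from 3.99 to 5.16 in air to 6.62 to 7.23. The dimmer Smc2 probe sets changed there by 0.48, 0.44 and 0.22, the last not called (adjusted p = 0.151). Ncapg, a regulatory subunit of the same condensin complex, was between 3.67 and 3.83 in air and between 3.50 and 4.00 at 5 ppm. On this brightest probe set it was called at no concentration. Its dimmer probe set was called higher at 5 ppm against air (0.45, adjusted p = 0.0111). That probe set was also higher at 5 ppm than in the mean of 10, 20 and 40 ppm (0.43, adjusted p = 0.00801).

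Mki67, which encodes the Ki-67 protein that coats mitotic chromosomes, gave 3.81, 3.61, 4.05, 3.65 and 3.82 in air and 5.89, 6.06, 6.09, 5.77 and 6.25 at 5 ppm. The groups are far apart, and no mouse of another group exceeded 4.77, the value of mouse 1 at 120 ppm. The rise at 5 ppm was 2.23 ± 0.155 (SE, 4.68-fold, adjusted p = 2.68e-14). At 10, 20, 40 and 120 ppm Mki67 was 0.28, 0.18, 0.05 and 0.28 above air, none of them called, the smallest adjusted p being 0.106. Top2a, the topoisomerase that untangles sister chromosomes, gave 3.83, 3.54, 3.91, 3.85 and 3.89 in air and 5.42, 6.15, 6.08, 5.83 and 6.04 at 5 ppm. Unlike Mki67 it stayed above air at the higher concentrations. It rose by 2.1 ± 0.16 (4.29-fold, adjusted p = 2.03e-13) at 5 ppm, 1.18 at 10 ppm, 1.10 at 20 ppm, 0.77 at 40 ppm and 0.94 at 120 ppm, all called with adjusted p of 9.68e-05 or less. Cdca3, a trigger of mitotic entry that helps destroy WEE1, fell by 0.58 ± 0.153 (adjusted p = 0.00105) at 5 ppm.

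**Figure D2:**
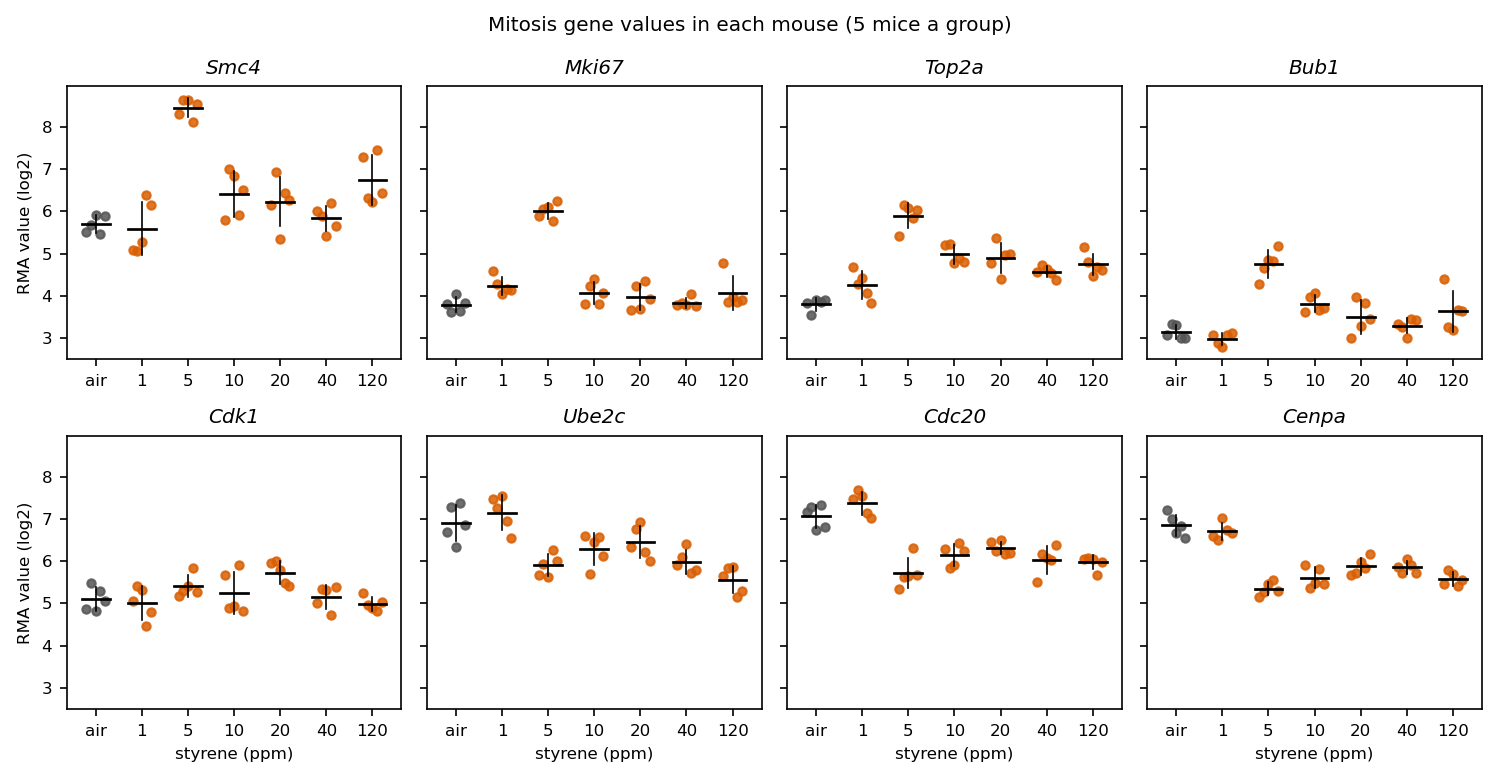
Log2 RMA value of 8 mitosis genes in each mouse (points, 5 a group), with the group mean (bar) and SD (line), by styrene concentration. Smc4, Mki67, Top2a and Bub1 peak at 5 ppm, Cdk1 has its highest mean, 5.73, at 20 ppm, and Ube2c, Cdc20 and Cenpa are lower from 5 ppm up.

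Of 8 genes of the spindle and of cytokinesis 5 rose and 1 fell at 5 ppm, beside 29.6% and 47.4% of all genes. Anln encodes anillin, the scaffold of the contractile ring. It gave 4.16, 3.93, 4.11, 4.29 and 3.67 in air and 5.22, 4.89, 5.75, 5.71 and 5.92 at 5 ppm, without overlap. It rose by 1.47 ± 0.166 (2.76-fold, adjusted p = 1.58e-09) at 5 ppm and by 0.83 to 1.13 at the 4 higher concentrations, called in each. Nusap1, which bundles spindle microtubules, rose by 1.29 ± 0.148 (2.45-fold, adjusted p = 1.93e-09) at 5 ppm and by 0.40 to 0.48 above that. Ect2, the exchange factor that starts furrow formation, rose by 1.22 ± 0.177 (adjusted p = 2.12e-07), Aspm, a spindle pole protein, by 0.90 ± 0.122 (adjusted p = 6.37e-08) and Prc1, the midzone bundler, by 0.45 ± 0.143 (adjusted p = 0.00557). Dlgap5, a spindle assembly factor, went the other way in every comparison from 5 to 120 ppm. It gave 4.39, 4.95, 4.89, 5.09 and 4.65 in air and 3.88, 3.70, 4.18, 3.94 and 4.22 at 5 ppm, again without overlap. The fall was 0.81 on the log2 scale at 5 ppm (SE 0.145, adjusted p = 7.69e-06) and 0.60 to 0.63 at the higher concentrations. Hmmr and Tpx2, which act in spindle assembly with Aurora A, passed no test at 5 ppm, at 0.18 ± 0.104 and -0.22 ± 0.174.

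Of 7 centromere, kinetochore and passenger genes 3 rose and 1 fell at 5 ppm, beside 29.6% and 47.4% of all genes. Cenpa encodes the histone H3 variant that marks the centromere. It gave 7.20, 6.99, 6.67, 6.84 and 6.55 in air, 5.16, 5.26, 5.46, 5.56 and 5.29 at 5 ppm and 5.47, 5.78, 5.70, 5.40 and 5.55 at 120 ppm. The 20 mice from 10 to 120 ppm lay between 5.36 and 6.16, so every mouse from 5 ppm up was below every air mouse. Cenpa changed by -1.51 ± 0.124 (2.84-fold lower, adjusted p = 1.27e-12) at 5 ppm and by -0.97 to -1.27 at the higher concentrations, called in all. Spc25, a subunit of the NDC80 complex that grips microtubules, rose by 1.14 ± 0.154 (adjusted p = 5.59e-08) at 5 ppm, while Ndc80 itself was at -0.19 ± 0.148 (adjusted p = 0.233). Cenpf, a large protein of the outer kinetochore, rose by 0.94 ± 0.135 (adjusted p = 1.83e-07). Birc5, which encodes survivin of the chromosomal passenger complex, rose by 0.55 ± 0.178 (adjusted p = 0.0065), but against the 1 ppm mice its difference was -0.02. Cdca8, the borealin subunit of that complex, was at -0.24 ± 0.137 (adjusted p = 0.112) and the kinetochore motor Cenpe at 0.06 ± 0.11 (adjusted p = 0.595).

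Of the 6 spindle checkpoint and anaphase genes 2 rose and 3 fell at 5 ppm, beside 29.6% and 47.4% of all genes. Bub1, a checkpoint kinase at kinetochores, gave 3.06, 3.34, 3.31, 3.01 and 3.00 in air and 4.27, 4.65, 4.84, 4.82 and 5.17 at 5 ppm. It rose by 1.61 ± 0.18 (3.05-fold, adjusted p = 1.18e-09) at 5 ppm, by 0.67 at 10 ppm (adjusted p = 0.00168) and by 0.49 at 120 ppm (adjusted p = 0.0174). The call at 120 ppm rested on mouse 1 of that group: without it the change was 0.30 (adjusted p = 0.113). Mad2l1, whose MAD2 protein binds CDC20, rose at every concentration from 5 ppm, by 0.88 ± 0.177 (adjusted p = 4.07e-05) at 5 ppm and 0.61 to 0.92 above. Cdc20, the target of the checkpoint, gave 7.17, 7.29, 6.74, 7.32 and 6.80 in air and 5.35, 5.62, 5.64, 6.30 and 5.67 at 5 ppm. It changed by -1.35 ± 0.163 (2.54-fold lower, adjusted p = 5.75e-09) at 5 ppm and by -0.75 to -1.09 from 10 to 120 ppm, and its highest value from 5 ppm up, 6.49, was below the lowest air value, 6.74. Ube2c, the ubiquitin-conjugating partner of the anaphase-promoting complex, gave 6.70, 7.28, 6.33, 7.37 and 6.85 in air and 5.64, 5.83, 5.87, 5.16 and 5.30 at 120 ppm. It changed by -1.0 ± 0.215 (adjusted p = 9.82e-05) at 5 ppm and by -1.35 ± 0.215 (adjusted p = 1.52e-06) at 120 ppm, and was not called at 20 ppm (-0.45, adjusted p = 0.0639). Bub3 fell by 0.29 (SE 0.0964, adjusted p = 0.0067) at 5 ppm, and Bub1b was at -0.32 ± 0.17 (adjusted p = 0.0816).

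Among cyclins and master regulators 1 of 4 rose and 1 fell at 5 ppm, beside 29.6% and 47.4% of all genes. Ccna2, cyclin A of S phase and early mitosis, rose by 0.89 ± 0.147 (1.86-fold, adjusted p = 1.93e-06), with values of 3.77 to 4.03 in air and 4.27 to 5.13 at 5 ppm. Cdk1, the mitotic kinase itself, gave 4.86, 5.49, 4.82, 5.29 and 5.05 in air and 5.17, 5.30, 5.40, 5.84 and 5.26 at 5 ppm, groups that overlap. Its change there was 0.29 ± 0.195 (adjusted p = 0.166), and it was called at 20 ppm alone, where it was 0.63 ± 0.195 above air (adjusted p = 0.00581) with values of 5.95, 6.00, 5.80, 5.49 and 5.42. Ccnb2, a B-type cyclin, was likewise called at 20 ppm (0.44, adjusted p = 0.0187) and at no other concentration, and its change at 5 ppm was 0.22 ± 0.16 (adjusted p = 0.198). Without mouse 1 of the air group the Ccnb2 difference at 20 ppm was 0.35 (adjusted p = 0.071). Neither difference between 20 ppm and the other exposed groups was tested. Foxm1, the late-cycle transcription factor, gave 3.68, 4.02, 4.46, 4.17 and 4.46 in air and 3.68, 3.66, 3.51, 4.10 and 3.42 at 5 ppm. It fell by 0.48 (SE 0.175, adjusted p = 0.0135), a call that quantile normalization ended (-0.43, adjusted p = 0.0688).

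Of 5 mitotic kinases 1 rose and 3 fell at 5 ppm, beside 29.6% and 47.4% of all genes, and 2 of the 3 falls were lost without single mice. Nek2, which parts the centrosomes, gave 4.93, 4.92, 5.29, 5.41 and 5.71 in air and 5.88, 6.26, 6.11, 6.86 and 6.94 at 5 ppm. It rose by 1.16 ± 0.199 (2.23-fold, adjusted p = 4e-06) at 5 ppm and by 1.35 ± 0.199 (adjusted p = 3.85e-07) at 120 ppm, and in each comparison between. Plk1, which drives mitotic entry and centrosome maturation, fell by 0.39 (SE 0.104, adjusted p = 0.00117) at 5 ppm. Aurkb, the kinase of the passenger complex, fell by 0.34 (SE 0.127, adjusted p = 0.0171), but not without mouse 4 of air (-0.27, adjusted p = 0.065) or mouse 5 of 5 ppm (-0.22, adjusted p = 0.102). Ttk, the kinase that starts the checkpoint, fell by 0.29 (SE 0.131, adjusted p = 0.0482) at 5 ppm and by 0.35 to 0.39 above. Its call at 5 ppm was lost without mouse 3, 4 or 5 of air or mouse 1, 3 or 5 of 5 ppm, with changes of -0.29 to -0.18. Aurka, which builds the spindle poles, was at -0.26 ± 0.144 (adjusted p = 0.0939).

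Of 6 kinesins 0 rose and 1 fell at 5 ppm, beside 29.6% and 47.4% of all genes. Kif23, the midzone motor of cytokinesis, gave 3.88, 3.87, 3.58, 4.54 and 3.56 in air and 3.08, 3.14, 3.65, 3.21 and 2.95 at 5 ppm. It fell by 0.68 (SE 0.154, adjusted p = 0.000193) at 5 ppm and by 0.45 to 0.66 above. Kif11, Kif20a, Kif20b, Kif2c and Kif4 were called at no concentration against air, with changes of -0.10 to 0.32 at 5 ppm. With Aurka, Bub1b, Ncapg, Ndc80 and Tpx2 they are the 10 members not called against air from 5 to 120 ppm. Under other settings 8 of the 10 were called at some concentration, all but Kif11 and Kif2c. Aurka, for example, was called lower after quantile normalization at 5 ppm (-0.62, adjusted p = 0.00114) and higher with array interquartile range as a covariate at 20 ppm (0.73, adjusted p = 0.0118). In each of the 5 comparisons from 5 to 120 ppm, which share the same air mice, 63.6% to 77.0% of all genes were called. The shares of all genes called the same way in all 5, or in none, are not given here. Top2a, Mad2l1, Nek2, Nusap1 and Anln were called higher, and Cdc20, Ttk, Cenpa, Kif23 and Dlgap5 lower, in all 5 comparisons from 5 to 120 ppm. Among these, calls were lost without single mice for Ttk in all 5 comparisons, for Nusap1 at 40 ppm (0.30 to 0.33 without mouse 1 of air or mouse 4 of 40 ppm) and for Kif23 at 40 ppm (-0.29 without mouse 4 of air). Averaging the probe sets of each gene ended the calls of Top2a at 40 and 120 ppm (0.08 and 0.14), Nek2 at 10 ppm (0.13), Nusap1 at 10, 20, 40 and 120 ppm (0.06 to 0.15), Kif23 at 5, 20, 40 and 120 ppm (-0.21 to -0.15) and Ttk at 10, 20 and 40 ppm (-0.15 to -0.10). Quantile normalization ended those of Mad2l1 at 10 and 40 ppm (0.41 and 0.29), Kif23 at 40 ppm (-0.39) and Ttk at 5, 20, 40 and 120 ppm (-0.35 to -0.27). Anln and Cenpa kept all 5 calls under every alternative that tested them, and Cdc20 and Dlgap5 under all but the covariate.

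With the interquartile range of the arrays as a covariate, 8 of the 16 higher calls and 1 of the 11 lower calls at 5 ppm were kept. Anln, Aspm, Bub1, Cenpf, Ect2, Mki67, Nusap1 and Top2a stayed higher and Cenpa lower. Smc4 was then at 1.24 (adjusted p = 0.0578), Smc2 at 0.65 (adjusted p = 0.216), Nek2 at 0.98 (adjusted p = 0.0707) and Cdc20 at -0.64 (adjusted p = 0.116). Ube2c moved to -0.49 (adjusted p = 0.43) and Foxm1 to 0.04 (adjusted p = 0.949). At 120 ppm the same fit kept 2 higher calls, Anln and Nek2, and 1 lower call, Cenpa.

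**Figure D3:**
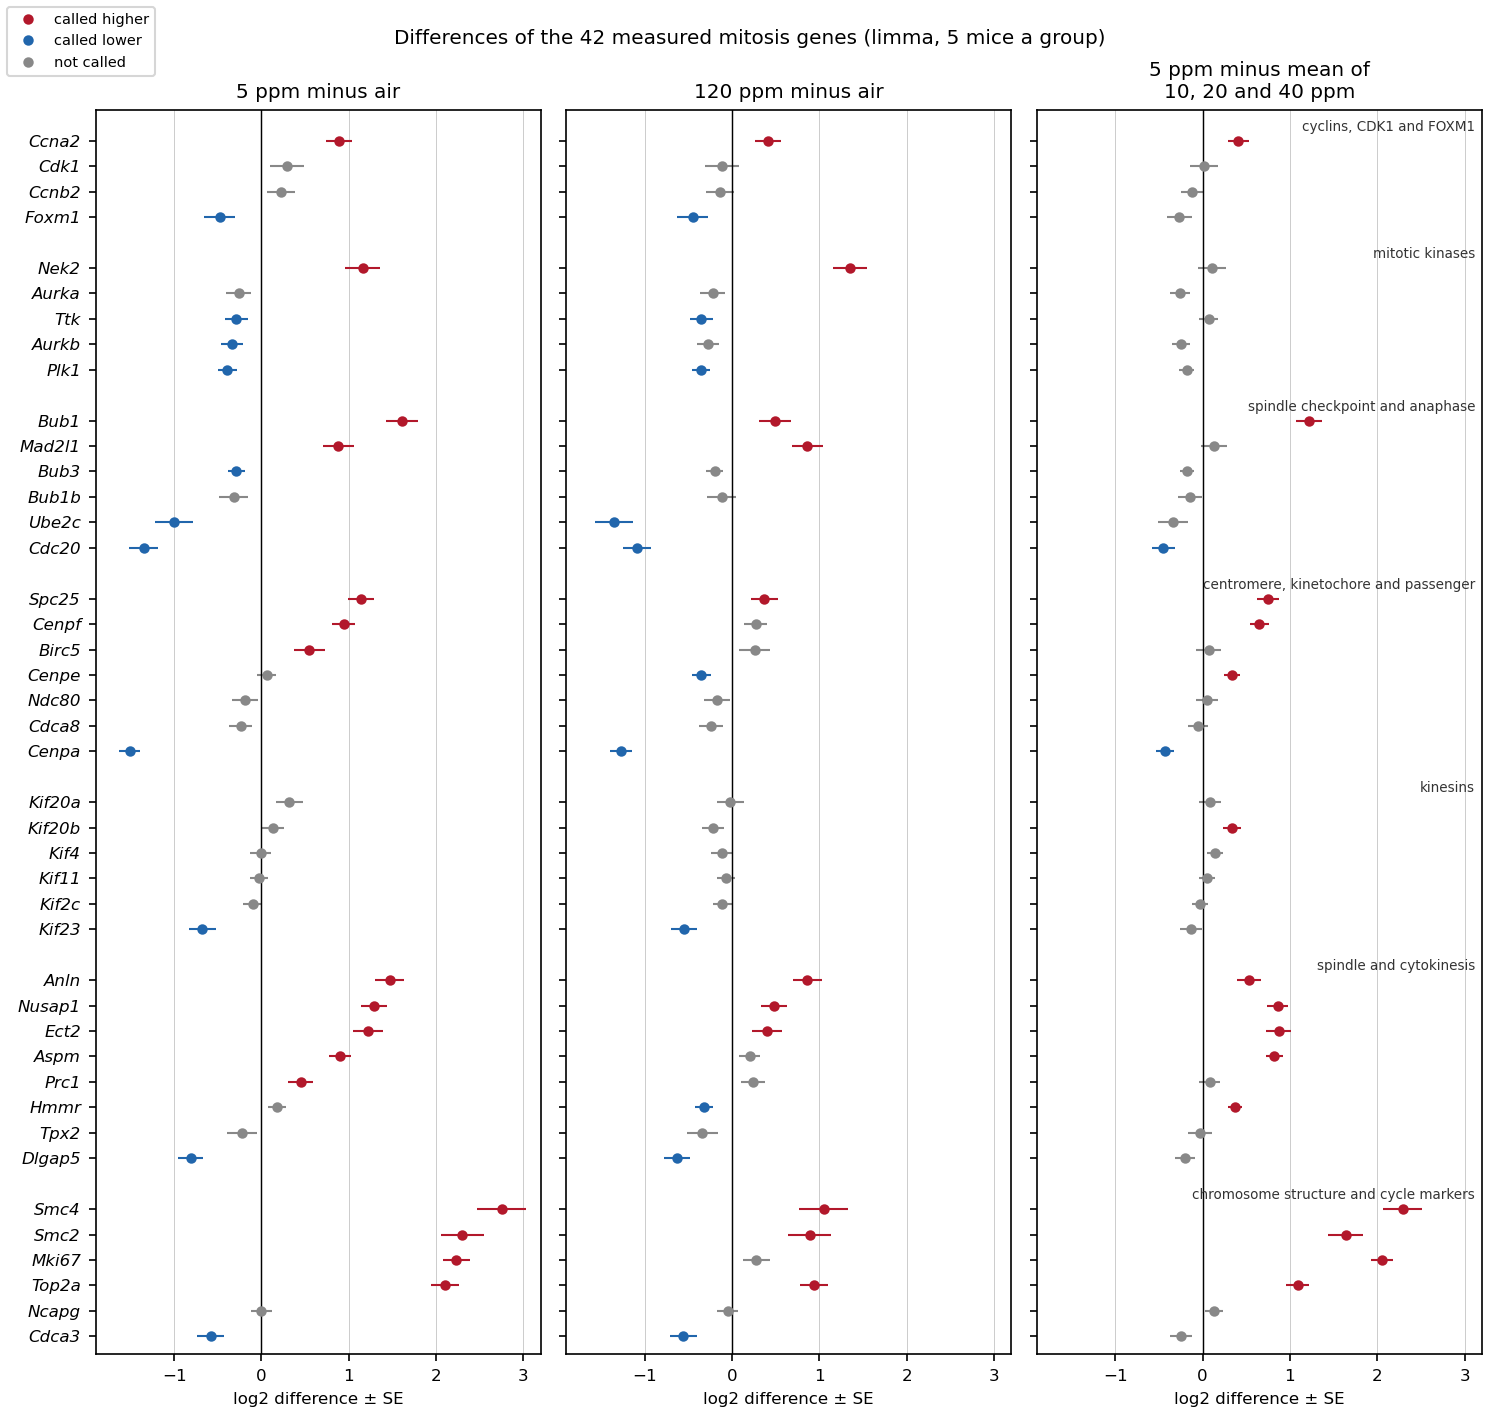
Log2 difference ± SE of each of the 42 mitosis genes, grouped by role, for 5 ppm minus air, 120 ppm minus air and 5 ppm minus the mean of 10, 20 and 40 ppm. Red marks genes called higher, blue lower and grey not called, and the third panel has 15 red and 2 blue points.

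A further comparison set 5 ppm against the mean of 10, 20 and 40 ppm. Its difference leaves out the air arrays, while its error was estimated from all 35 arrays. Here 15 members were higher, 2 lower and 25 passed no test, whereas 42.3% of all genes were called, 13.5% higher and 28.8% lower. The share of members higher was 35.7%, and the share lower 4.76%. Among members at or below the median signal 14 of 35 were higher (40.0%) and 0 lower, against 9.36% and 12.4% of genes of that signal. The 5 ppm mice lay above all 15 mice of the other groups in 7 members, Aspm, Bub1, Cenpf, Mki67, Smc2, Smc4 and Top2a, as did 6.71% of all genes. Mki67 had the smallest p of all 17097 genes in this comparison, at 2.06 ± 0.126 (SE, 4.16-fold, adjusted p = 6.17e-13). Smc4 was 2.29 ± 0.228 higher (4.89-fold, adjusted p = 9.92e-09), the 12th largest rise of all genes.

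Smc2 was 1.64 ± 0.2 higher (adjusted p = 2.15e-07), Bub1 1.22 ± 0.147 (adjusted p = 1.89e-07) and Top2a 1.09 ± 0.131 (adjusted p = 1.79e-07). Ect2, Nusap1, Aspm, Spc25 and Cenpf were higher by 0.65 to 0.87, and Anln, Ccna2, Hmmr, Kif20b and Cenpe by 0.34 to 0.53. Hmmr, Kif20b and Cenpe were not called at 5 ppm against air (0.18, 0.13 and 0.06). Cenpe was lower than air at 10 ppm (-0.30, adjusted p = 0.0187), 40 ppm (-0.29, adjusted p = 0.0202) and 120 ppm (-0.35, adjusted p = 0.00594), and Hmmr at 40 ppm (-0.31, adjusted p = 0.00981) and 120 ppm (-0.32, adjusted p = 0.0069). The call for Cenpe between 5 ppm and 10 to 40 ppm held without mouse 5 of 5 ppm, whose value was 4.24, but its difference shrank to 0.19 (adjusted p = 0.0436). Cenpa (-0.43 ± 0.101, adjusted p = 0.000862) and Cdc20 (-0.45 ± 0.133, adjusted p = 0.00687) were lower. Cdk1 differed by 0.02 ± 0.159 (adjusted p = 0.935), Ccnb2 by -0.12 ± 0.131 (adjusted p = 0.479) and Aurka by -0.26 ± 0.118 (adjusted p = 0.0751). All 15 higher calls were kept under every alternative that tested them, the interquartile range as a covariate included, and on that range 5 ppm overlapped 10 to 40 ppm. A filter on dim genes left 14 of the 15 untested. On the first principal component the 5 ppm arrays (-0.2094 to -0.1534) did not overlap those of 10 to 40 ppm (-0.1205 to 0.0145), and the part of that difference was not tested. Of the 2 lower calls that of Cdc20 was lost in the same fit (-0.31, adjusted p = 0.0745). The lower count was 6 after centring arrays and 6 without mouse 4 of 5 ppm, and 4 without mouse 3 of 5 ppm, mouse 5 of 20 ppm or mouse 4 of 40 ppm.

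At 1 ppm 0 of 42 members were called by limma, with 2.46% of all genes called, 0.965% higher and 1.49% lower. An unadjusted p under 0.05 was found for 9 members and 15.6% of all genes. The nearest was Mad2l1 at -0.61 ± 0.177 (adjusted p = 0.057), and Birc5 at 0.57 ± 0.178 (adjusted p = 0.0805) had all 5 mice, 4.57 to 5.06, above the air mice, 3.78 to 4.47. Between 120 ppm and the mean of 10 to 40 ppm 0 members were called, against 0.0936% of all genes, 0.0117% higher and 0.0819% lower. Here 4 members and 10.7% of all genes had an unadjusted p under 0.05. Ube2c (-0.68 ± 0.175, adjusted p = 0.114) and Ccnb2 (-0.48 ± 0.131, adjusted p = 0.145) were the closest. A trend on log2 concentration over 10 to 120 ppm called 0 members and 0.0% of all genes, with 4 members and 7.86% of genes at an unadjusted p under 0.05. Ube2c had the smallest p, with a slope of -0.23 ± 0.0566 log2 for each doubling (adjusted p = 0.223). By group mean, 14 members were highest and 11 lowest at 5 ppm, and 12 and 10 at 1 ppm. The shares of all genes highest or lowest in these groups are not given here, so the counts say nothing particular to the members.

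Probe sets of 1 gene did not always tell the same story. The 42 members have 84 probe sets in all, and 26 members have more than 1. Against air, all probe sets of a called gene were called in the same direction for 2 of 14 members with several at 10 ppm, 2 of 12 at 20 ppm, 0 of 11 at 40 ppm and 2 of 15 at 120 ppm, with opposite calls for Cenpf and Nek2 at 10 ppm, Nek2, Nusap1 and Top2a at 40 ppm and Nek2 at 120 ppm. Of the 18 called members with several probe sets at 5 ppm, 5 had all of them called in the same direction and 4 had another called in the opposite direction, Cenpf, Kif23, Nek2 and Top2a. The 3 Smc4 probe sets rose by 2.75, 1.88 and 2.91, and the 4 of Foxm1 changed by -0.48 to -0.20, all called. In contrast, the bright Top2a probe set rose by 2.1 while the dimmer ones were at -0.25 (adjusted p = 0.0458) and -0.33 (adjusted p = 0.0509). Nek2 had 1.16 on its brightest probe set and -0.36 (adjusted p = 0.0194) on another, and Kif23 had -0.68 and 0.38 (adjusted p = 0.00279). For Bub1 (1.61 against -0.09), Anln (1.47 against -0.11), Nusap1 (1.29 against -0.18) and Aspm (0.90 against -0.04 and -0.05) the dimmer probe sets passed no test. Mki67 has a single probe set. When the probe sets of each gene were averaged, the calls of Aurkb (-0.08, adjusted p = 0.422) and Kif23 (-0.15, adjusted p = 0.146) at 5 ppm were lost.

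**Figure D4:**
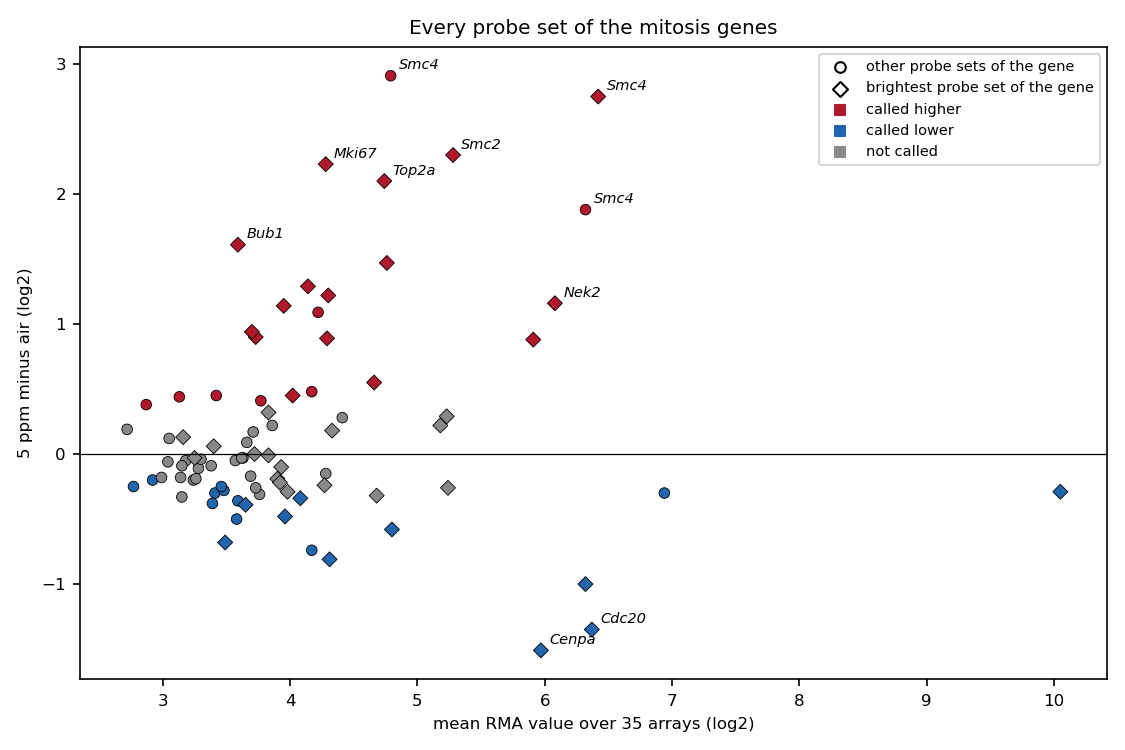
Change at 5 ppm against air (log2) of all 84 probe sets of the mitosis genes, plotted against their mean signal over 35 arrays (log2). Diamonds are the brightest probe set of a gene and circles the others, red called higher, blue lower and grey not called; most grey circles lie below a signal of 4.

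Mice of the same group varied in some mitosis genes together. After each group's mean was removed, the median Pearson correlation over 861 pairs of members was 0.07 across 35 mice, as a description without a test, since all genes of a mouse share 1 array. The strongest pairs were Mki67 with Bub1 (0.74), Cdk1 with Cdc20 (0.71), Cenpe with Cenpf (0.70), Smc2 with Smc4 (0.66) and Cdk1 with Ube2c (0.66). The lowest was Cdc20 with Smc4 (-0.62). Pairs within the 16 genes that rose at 5 ppm had a median of 0.20 and pairs within the 11 that fell 0.15, and pairs between the sets had -0.07. Bub1 with Anln (0.64) and Anln with Ect2 (0.63) were also among the highest.

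The members that rose at 5 ppm had a longer median span than those that fell. Those that rose spanned 5.89 to 58.0 kb and those that fell 2.97 to 37.7 kb, ranges that overlap. The median genomic span in GRCm38.p6 was 30.6 kb for the 16 that rose, 10.4 kb for the 11 that fell and 30.8 kb for the 15 not called. Cenpa, Cdc20 and Ube2c, the largest falls, span less than 10 kb. Of 9 members under 10 kb 3 rose and 5 fell, where 12.0% and 62.5% of all genes of that span did. Of 9 members of 10 to 20 kb 2 rose and 3 fell (25.2% and 54.2% of all genes). Of 14 members of 20 to 40 kb 7 rose and 3 fell (35.8% and 43.1%). Of 9 members of 40 to 80 kb 4 rose and 0 fell (44.9% and 33.5%). The same slope is present in the whole genome: the median change of all genes was -0.39 for spans under 10 kb, -0.32 for 10 to 20 kb, -0.15 for 20 to 40 kb, 0.08 for 40 to 80 kb and 0.18 above 80 kb. The correlation of the change with log2 span was 0.36 (Pearson) and 0.37 (Spearman) over 42 members, and 0.30 and 0.31 over 17053 genes. At 10, 20, 40 and 120 ppm it was 0.22, 0.06, 0.21 and 0.31 (Pearson) and 0.16, -0.03, 0.11 and 0.24 (Spearman) over the members, against 0.27 to 0.30 and 0.29 to 0.32 over all genes. For 5 ppm against 10 to 40 ppm it was 0.43 and 0.55 over the members and 0.22 and 0.21 over all genes. These are descriptions across genes of the same arrays, and the part of gene length in the results was not tested. GC content of the promoter showed a correlation of 0.07 (Pearson) with the change at 5 ppm over 35 members.

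**Figure D5:**
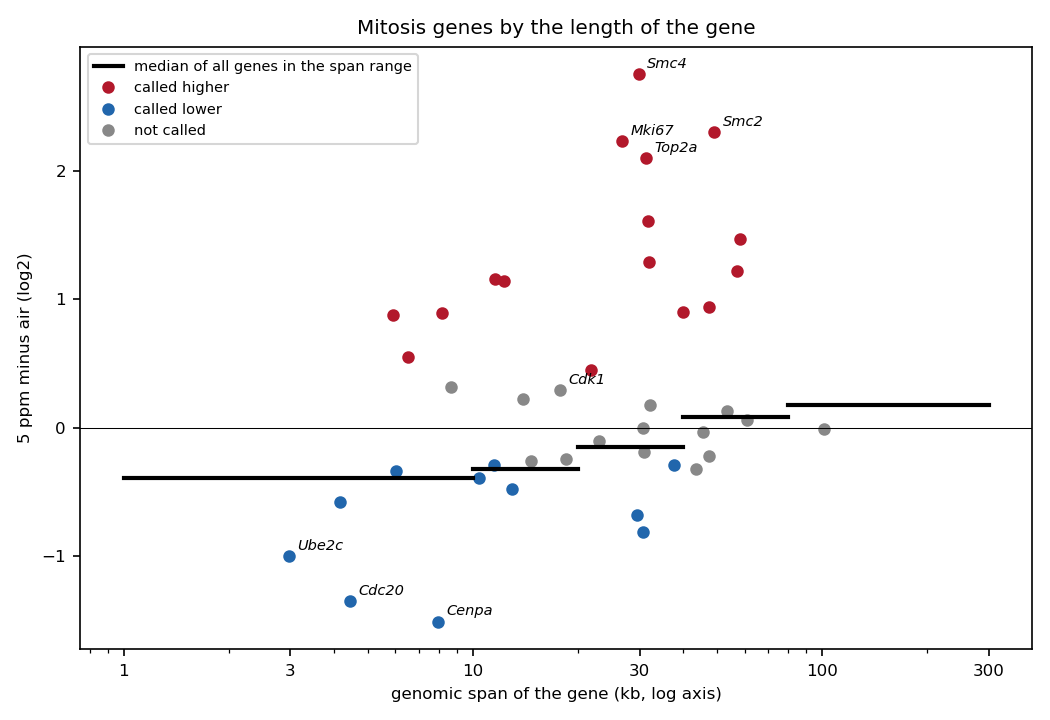
Change at 5 ppm against air (log2) of the 42 mitosis genes by genomic span (kb, log axis), coloured by call, with the median change of all genes in each span range as black bars. The bars climb from -0.39 under 10 kb to 0.18 above 80 kb, and Smc4, Mki67 and Top2a stand far above the bar for 20 to 40 kb.

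The wider cell cycle machinery was called in both directions. The counts of each list at 5 ppm stand beside 29.6% of all genes higher and 47.4% lower. Of 7 CDK inhibitors 0 rose and 6 fell. Cdkn1c fell by 1.98 (SE 0.163, adjusted p = 1.19e-12) and Cdkn2d by 1.58 (SE 0.136, adjusted p = 3.2e-12). Cdkn2c, another INK4 inhibitor, fell by 0.83 (adjusted p = 7.17e-06). Cdkn1a, which encodes p21, gave 9.87, 10.22, 9.51, 9.75 and 9.95 in air and 9.06, 8.20, 8.69, 8.65 and 8.93 at 5 ppm. It fell by 1.15 (SE 0.309, adjusted p = 0.00124) at 5 ppm and by 1.60 (adjusted p = 2.91e-05) at 120 ppm, and the interquartile range as a covariate ended both calls (adjusted p = 0.552 and 0.164).

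Of 10 G1 cyclins and CDKs 4 rose and 5 fell at 5 ppm, where 29.6% and 47.4% of all genes did. Cdk4 fell by 1.08 (adjusted p = 1.14e-14) and Ccnd3 by 1.59 (adjusted p = 3.76e-14), while Ccnh, a cyclin of the CDK-activating kinase, rose by 2.02 (adjusted p = 1.83e-12) and its kinase Cdk7 by 1.51 at 120 ppm (adjusted p = 3.63e-11). Of 18 regulators of the E2F, RB and DREAM families 12 rose and 5 fell. E2f5 (1.76 ± 0.122, adjusted p = 2.46e-14) and Tfdp2 (1.78 ± 0.14, adjusted p = 4.09e-13) rose at 5 ppm, and the DREAM pocket protein Rbl2 rose by 2.37 (adjusted p = 8.1e-12) at 120 ppm. E2f1 (-1.38 ± 0.153, adjusted p = 1.06e-09) and E2f2 (-1.44 ± 0.127, adjusted p = 5.41e-12) fell at 5 ppm, as did Mybl2, which encodes B-MYB (-0.26 ± 0.0718, adjusted p = 0.00159). E2f3 went the other way there, up by 1.06 ± 0.144 (adjusted p = 6.62e-08), with 1 of its 2 probe sets called. Quantile normalization ended the call of Mybl2 (-0.13, adjusted p = 0.129).

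Of 19 S phase genes 9 rose and 7 fell at 5 ppm, again beside 29.6% and 47.4% of all genes. Pcna, the sliding clamp of DNA polymerase, gave 9.70 to 10.07 in air and 10.85 to 11.05 at 5 ppm and rose by 1.05 (SE 0.0807, adjusted p = 2.37e-13). The helicase subunits went apart, with Mcm4 up by 2.39 (SE 0.162, adjusted p = 1.59e-14) and Mcm2 at -1.94 (SE 0.162, adjusted p = 1.61e-12). Of the ribonucleotide reductase subunits Rrm1 rose by 1.88 (adjusted p = 9.05e-11) and Rrm2 by 0.37 (adjusted p = 0.0053) at 120 ppm. Of 13 APC/C genes 6 rose and 5 fell at 5 ppm. Anapc4 rose by 2.27 (adjusted p = 2.75e-14), Anapc11 fell by 2.08 (adjusted p = 5.14e-15) and Fzr1, which encodes the G1 activator CDH1, fell by 1.98 (adjusted p = 1.23e-14).

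Of 6 genes that control CDK1 at mitotic entry 1 rose and 3 fell at 5 ppm. The phosphatase Cdc25b fell by 1.62 (adjusted p = 3.03e-11) and its relative Cdc25c by 0.51 (adjusted p = 0.000269). The inhibitory kinase Pkmyt1 fell by 0.87 (adjusted p = 3.11e-07), and its relative Wee1 rose by 1.00 at 120 ppm (adjusted p = 4.79e-05). Of 17 other genes of cohesin, condensin and their release, separase and securin included, 10 rose and 4 fell at 5 ppm (29.6% and 47.4% of all genes), with a median of 1.26 log2. Ncapd3 (1.84 ± 0.166, adjusted p = 9.61e-12) and Rad21, the cohesin ring's kleisin (1.68 ± 0.154, adjusted p = 1.46e-11), rose, and Ncaph2 fell by 1.57 (SE 0.113, adjusted p = 5.71e-14). In 5 ppm against 10 to 40 ppm 9 of these 17 genes were higher and 2 lower, against 13.5% and 28.8% of all genes. The interquartile range as a covariate ended the calls at 5 ppm of Cdkn2c, Mybl2, Cdc25c, Pkmyt1 and Ncapd3 and those at 120 ppm of Rrm2 and Wee1.

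Markers of cells that divide in other organs or enter the lung were read in the same mice. Their counts at 5 ppm against air stand beside 29.6% of all genes higher and 47.4% lower. Those in 5 ppm against 10 to 40 ppm stand beside 13.5% and 28.8%. The mean of 7 thymocyte markers was 3.87 to 4.02 in air, 3.84 to 4.08 at 5 ppm and 3.83 to 4.33 at 120 ppm, and 1 of the 7 rose and 2 fell at 5 ppm. The mean of 6 B cell markers was 4.73 to 5.46 in air and 4.66 to 5.74 at 5 ppm, with 1 higher and 2 lower, and that of 7 T and NK cell markers 5.24 to 5.54 and 4.99 to 5.52, with 2 higher and 2 lower. The mean of 9 alveolar macrophage markers was 7.99 to 8.86 in air and 9.04 to 9.44 at 5 ppm, with 5 higher and 1 lower. The mean of 6 red cell precursor markers was 7.04 to 7.25 in air and 6.19 to 6.76 at 5 ppm, with 3 lower, and that of 6 striated muscle markers 7.06 to 9.05 and 5.80 to 7.18, with 4 lower. The macrophage marker that fell was Car4 (-0.34, adjusted p = 0.0106), and Itgax, Krt79 and Marco were not called, nor were Hba-a1, Epb42 and Rhag of the red cell markers. In 5 ppm against 10 to 40 ppm 0 of 7 thymocyte markers were called, 1 of 9 macrophage markers was higher and 1 lower, and 1 of 6 red cell markers was lower. Of 6 B cell markers Ms4a1, which encodes CD20, was higher (1.36, adjusted p = 0.024) and Pax5 lower (-0.20, adjusted p = 0.0492), and of 7 T and NK cell markers Cd3e was lower (-0.50, adjusted p = 0.0079). The part of these cells in the changes of the mitosis genes was not tested.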

How the data were processed

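RNA from whole lung of 35 mice was measured on 35 Affymetrix arrays, 1 a mouse and 5 a group. The deposited values are log2 probe set signals that the authors made by RMA, with Partek named as software, per the submitters' processing notes; the version is not given in the sources used here. The table holds 45037 probe sets, of which 28898 carry exactly 1 gene symbol, 551 several and 15588 none. The brightest probe set of each symbol by mean over all arrays gave 17097 genes. limma 3.58.1 in R 4.3.3 (lmFit, eBayes) was fitted on all 35 arrays and all genes, two-sided, with Benjamini-Hochberg adjustment over all genes and calls at an adjusted p under 0.05; the trend used the 20 mice from 10 to 120 ppm. The script was tested on simulated data. p-values measure the spread between these mice only, and 5 arrays a group limit the precision. Any measured member could be named. Of each other cell cycle list the 3 called genes with the smallest adjusted p at 5 and at 120 ppm were named, with Cdkn1a, E2f1, Mybl2, Rrm2, Pcna and Fzr1 in any case. E2f3 was named beside E2f1 and E2f2. The members and lists were chosen with earlier results of these data known. Alternatives were quantile normalization, centring, a filter on dim genes, the mean of probe sets, another prior, the compared groups alone, array interquartile range as a covariate, 1 ppm in place of air, the replicate number as a block and each mouse left out. Same-numbered mice of different groups had correlations of -0.378 to 0.441 (median 0.0648), and other pairs a median of -0.0077. The main fit did not pair mice by number, and pairing was not tested.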

Additional observations from a re-analysis of the deposited data

Results flagged for a closer look

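In 15 of 294 groups of 5 mice (5.1%) 1 mouse stood apart from the other 4, by a gap over 0.71 of the group's range (Dixon's 95% critical value), and chance gives about 1 in 20. Mouse 1 of 120 ppm was high for Mki67, at 4.77 log2 against 3.84 to 3.96 in the others, and for Prc1, at 4.47 against 3.84 to 3.97. Mouse 2 of 40 ppm was high for Cenpe, at 3.54 against 3.19 to 3.28, and for Spc25, at 4.23 against 3.77 to 3.88. At 40 ppm Mki67 was high in mouse 4, at 4.04 against 3.76 to 3.82, Ndc80 low in mouse 1, at 3.58 against 3.88 to 3.97, and Ect2 low in mouse 5, at 3.84 against 4.29 to 4.39. In air Top2a was low in mouse 2, at 3.54 against 3.83 to 3.91, Aurka in mouse 5, at 5.19 against 5.32 to 5.38, and Birc5 in mouse 1, at 3.78 against 4.30 to 4.47. At 1 ppm Kif20b was high in mouse 1, at 4.18 against 3.30 to 3.53, Kif4 in mouse 3, at 4.31 against 3.60 to 3.77, and Foxm1 in mouse 2, at 5.15 against 4.08 to 4.26. Kif4 was also high in mouse 5 of 10 ppm, at 4.02 against 3.76 to 3.83. Cdc20 was low in mouse 4 of 120 ppm, at 5.68 against 5.97 to 6.08.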

How the results depend on the processing

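The 15 higher calls between 5 ppm and 10 to 40 ppm were kept under every alternative that tested them. The filter on dim genes left 14 of these 15 untested, and 1 ppm in place of air does not bear on this comparison. With the filter on dim genes, which leaves 7 members to test, higher and lower counts against air were 3 and 4 at 5 ppm, 3 and 3 at 10 ppm, 2 and 2 at 20 ppm, 2 and 3 at 40 ppm and 3 and 3 at 120 ppm, and 1 was higher in 5 ppm against 10 to 40 ppm. With array interquartile range as a covariate they were 8 and 1, 2 and 1, 5 and 1, 1 and 2, and 2 and 1, and 1 member was lower in 5 ppm against 10 to 40 ppm. The counts of all genes under the filter and the covariate are not given here. The mean of probe sets gave 7 higher at 10 ppm and 7 at 120 ppm, and its counts of all genes are not given here either. Quantile normalization gave 1 higher at 1 ppm and 9 higher at 40 ppm, and centring 8 lower at 20 ppm and 6 lower in 5 ppm against 10 to 40 ppm. Of all genes the former called 211 and 4462 higher there, and the latter 6818 and 5855 lower. With 1 ppm in place of air 9 members were lower at 20 ppm and 8 higher at 40 ppm, and the counts of all genes under that setting are not given here.

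The replicate block, whose pairing by number was not tested, gave 1 lower call at 1 ppm (Mad2l1, -0.61, adjusted p = 0.0395), ended that of Ttk at 5 ppm (-0.29, adjusted p = 0.0589) and added Aurkb in 5 ppm against 10 to 40 ppm (-0.25, adjusted p = 0.0463).

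Some single genes reversed. With the covariate Foxm1 was at 0.0397 at 5 ppm, Plk1 at 0.015 at 10 ppm, Mad2l1 at -0.0373 at 40 ppm and Bub1 at -0.08 at 120 ppm. Smc2 was at -0.50, -0.55, -0.93 and -0.53 from 10 to 120 ppm, Smc4 at -0.52 and -0.26 at 10 and 120 ppm, and Spc25 at -0.17 and -0.18. Against 1 ppm Birc5 was at -0.0229 and -0.08 at 5 and 10 ppm, Cenpe at 0.0109 and 0.0136 at 10 and 40 ppm, Cenpf at -0.00271 and -0.0102 at 10 and 20 ppm and Mki67 at -0.40 at 40 ppm. Of these, Smc2 at 40 ppm (adjusted p = 0.039) and Mki67 (adjusted p = 0.0223) were called lower. The mean of probe sets put Cenpf at -0.0231 and -0.00579 at 10 and 20 ppm. The cause was not tested.

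Leaving out each mouse gave 0 to 1 higher and 0 to 1 lower at 1 ppm, 16 to 18 and 9 to 13 at 5 ppm, 9 to 12 and 7 to 11 at 10 ppm, 12 to 15 and 4 to 7 at 20 ppm, 4 to 7 and 10 to 12 at 40 ppm, 9 to 12 and 9 to 13 at 120 ppm, and 15 and 2 to 6 in 5 ppm against 10 to 40 ppm. Of all genes 68 to 284 were then higher and 104 to 438 lower at 1 ppm. At 5 ppm the counts were 4898 to 5068 and 7727 to 8109, and at 10 ppm 4747 to 4959 and 5921 to 6536. At 20 ppm they were 4793 to 5013 and 5210 to 6016, and at 40 ppm 4710 to 4900 and 5753 to 6346. At 120 ppm they were 4933 to 5095 and 6228 to 6795. In 5 ppm against 10 to 40 ppm they were 2057 to 2348 and 4150 to 5014. The table holds no detection calls, so signal over background could not be set for the dim members.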
